A study of Mus musculus with 24 samples.

Results

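The measurements concern 9 stress genes of mouse skeletal muscle, taken by symbol from the 14159 genes of the deposited expression matrix: the inducible Hsp70 genes Hspa1a and Hspa1b, the co-chaperones Dnajb1 and Hsph1, the small heat shock genes Hspb1, Hspb7 and Cryab, and the metallothioneins Mt1 and Mt2. All 9 were present in the matrix and were followed in all 24 libraries, without a filter on their level. The quadriceps muscle of mice of the strains C57BL/6, called B6, and MRL/MpJ, called MRL, was sequenced in bulk after polyA selection. In each strain 3 libraries came from uninjured muscle, and 3 each came from muscle that had undergone volumetric muscle loss (VML) surgery and received saline, decellularized extracellular matrix (ECM) or polyethylene powder (PE), collected on day 21. The ECM was prepared from pig small intestine. The operated mice were females of 6 to 8 weeks of age at surgery, as the study's methods give it. For the uninjured groups no age was taken from the sources. Both strains are inbred and carry no transgene, and the surgery and a filling of the defect are shared by the saline, ECM and PE groups. The labels do not say that each library is a separate animal, so the p-values measure the spread between these libraries.

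Heat shock proteins bind unfolded or damaged proteins. Hsp70 proteins work in cycles of ATP hydrolysis that J-domain proteins such as Dnajb1 start, and that nucleotide exchange factors of the Hsp110 type such as Hsph1 drive on. Small heat shock proteins work without ATP and hold client proteins in a soluble state, and in striated muscle several of them sit at the sarcomere. The transcription factor HSF1 induces the classical heat shock genes. Metallothioneins are small cysteine-rich proteins that bind zinc and copper, and their genes are induced by metals through the factor MTF1 and by glucocorticoids. Values are given as CPM, the reads of a gene scaled to a library total that the study adjusted by the trimmed mean of M-values (TMM). CPM allows comparison of a gene between libraries but not of different genes with each other, since it does not correct for length. Fold changes are on the log2 scale of the deposited values, and a gene was called at a Benjamini-Hochberg adjusted p under 0.05 over all 14159 genes.

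The sequences around the transcription start are shown for 5 members, since the inducible pair and the metallothioneins differ in the motifs they carry there. Each window runs from 250 bases before the start to 30 bases after it, comes from RefSeq (GRCm38.p6) and was placed by its exact match in GRCm39. Motifs were counted in the whole window of 280 bases, and the stretch printed ends after at most 30 bases that GENCODE annotates as untranslated region. The Mt2 window begins inside the span that GENCODE gives for Mt2, and 144 of its 280 bases are annotated as untranslated region of that gene. Of the 9 members 8 were listed in the promoter table, and Cryab was not. The windows of Hspa1a (chr17:35191103-35191382, minus strand), Hspa1b (chr17:35178185-35178464, minus strand) and Hspb1 (chr5:135916523-135916789, plus strand) are printed with heat shock motifs in capitals, spelled GAANNTTC or TTCNNGAA on either strand.
Hspa1a: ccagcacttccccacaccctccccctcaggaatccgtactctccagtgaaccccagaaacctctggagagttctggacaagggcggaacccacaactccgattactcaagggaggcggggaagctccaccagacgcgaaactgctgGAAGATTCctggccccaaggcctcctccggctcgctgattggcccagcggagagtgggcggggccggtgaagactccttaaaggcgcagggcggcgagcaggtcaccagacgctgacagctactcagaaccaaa
Hspa1b: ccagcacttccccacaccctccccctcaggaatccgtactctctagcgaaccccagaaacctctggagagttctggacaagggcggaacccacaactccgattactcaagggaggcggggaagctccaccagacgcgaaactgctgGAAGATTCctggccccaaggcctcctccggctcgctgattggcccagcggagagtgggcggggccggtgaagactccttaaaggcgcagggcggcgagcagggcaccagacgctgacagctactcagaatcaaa
Hspb1: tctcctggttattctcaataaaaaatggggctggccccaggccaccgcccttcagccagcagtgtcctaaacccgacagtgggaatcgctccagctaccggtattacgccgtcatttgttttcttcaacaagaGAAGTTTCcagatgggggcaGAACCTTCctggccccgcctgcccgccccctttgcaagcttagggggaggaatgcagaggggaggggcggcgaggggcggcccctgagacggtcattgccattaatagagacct
The Mt1 (chr8:94905467-94905739, plus strand) and Mt2 (chr8:94898996-94899161, plus strand) stretches are printed with metal response motifs in capitals, spelled TGCGCNC or TGCACNC on either strand.
Mt1: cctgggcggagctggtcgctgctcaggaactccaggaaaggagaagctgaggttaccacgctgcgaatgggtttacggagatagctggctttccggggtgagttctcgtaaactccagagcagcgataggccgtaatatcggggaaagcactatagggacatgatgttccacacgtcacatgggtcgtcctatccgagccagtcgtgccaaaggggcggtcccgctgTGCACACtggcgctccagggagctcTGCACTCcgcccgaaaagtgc
Mt2: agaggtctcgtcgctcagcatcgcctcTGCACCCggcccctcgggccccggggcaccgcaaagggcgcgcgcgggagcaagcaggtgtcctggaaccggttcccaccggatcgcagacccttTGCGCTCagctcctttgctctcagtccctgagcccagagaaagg

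The whole Mt1 window holds 3 metal response motifs and the Mt2 window 4, of which 2 each lie in the stretch printed, while 1.73% of all 32851 promoter windows hold at least 3 and 24.1% hold at least 1. The Hspa1a and Hspa1b windows hold 1 heat shock motif each and the Hspb1 window 2. Among the windows not printed, those of Hsph1 hold 3 and 1, and those of Hspb7 and Dnajb1 hold 0. Of all windows, 14.2% hold at least 1 heat shock motif, 1.81% hold at least 2 and 0.21% hold at least 3. Hspa1a and Hspa1b share the base at 276 of the 280 positions. These matches describe letters in a window and do not show binding.

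In GRCm39 the members are spread over 5 chromosomes. Hspa1b (chr17:35175412-35178214) and Hspa1a (chr17:35188166-35191132) are neighbours, as are Mt2 (chr8:94898819-94900207) and Mt1 (chr8:94905710-94906955). Dnajb1 (chr8:84334811-84339820) is on the same chromosome as the metallothioneins, Hspb1 (chr5:135916760-135918417) and Hsph1 (chr5:149537636-149560156) share chromosome 5, and Hspb7 (chr4:141148090-141152625) and Cryab (chr9:50651859-50668567) stand alone. Hspa1a and Hspa1b transcripts are 99.2% identical over 2201 aligned bases, so the division of reads between them is uncertain and their summed CPM is given as well. Cryab shares 594 identical bases with the overlapping gene 2310030G06Rik, which has its own row, and the division of reads between these is uncertain too.

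Genes of fast muscle fibres were high in all libraries, as the tissue label calls for, with a summed level of 36341 to 234925 CPM over 10 marker genes. Replicate 2 of each PE group stood apart from the other PE libraries of its strain. In MRL the 3 PE libraries had fast fibre sums of 140359, 36341 and 141805 CPM and macrophage sums, over 8 markers, of 266, 4353 and 262 CPM. In B6 the fast fibre sums were 119625, 62323 and 132791 CPM and the macrophage sums 2864, 5309 and 1498 CPM. Slow fibre markers, 7 genes including Myh7 and Myl2, varied from 100 to 3290 CPM between libraries, and were highest in replicate 2 of saline-treated MRL muscle. Adipocyte markers, 7 genes, also differed within groups, with sums of 4889, 415 and 3115 CPM in MRL PE, 175, 371 and 325 CPM in B6 PE, and 176 to 3941 CPM in the other libraries. Of the keratinocyte and mammary epithelium markers 4 were measured (Csn2, Csn3, Wap and Lalba), with sums of 0.078 to 160 CPM. These sums were 0.078, 0.29 and 68.2 CPM in saline-treated B6 muscle and 64.1, 0.19 and 0.44 CPM in uninjured MRL muscle. Fold changes of the members in PE-treated muscle are given with and without replicate 2 of both PE groups. In bulk tissue, fewer cells of a type and less RNA per cell cannot be told apart.

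The members that passed the test did so in comparisons with PE-treated muscle, and Hspa1a, Hspa1b and Hsph1 passed in none of these. Averaged over the strains, Hspb7, Hspb1 and Cryab fell against uninjured muscle and Mt1 and Mt2 rose, by limma with adjusted p-values between 0.00594 and 0.0396. That is 5 of 9 members, where 44.0% of all genes were called, so the share is close to that of all genes. The 2 rises stand beside 23.5% of all genes called higher and the 3 falls beside 20.6% called lower. Against saline-treated muscle 4 of 9 were called (Hspb1 and Hspb7 lower, Dnajb1 and Mt1 higher), where 24.2% of all genes were, 15.0% higher and 9.17% lower. Against ECM-treated muscle 4 of 9 were called (Hspb1 and Cryab lower, Dnajb1 and Mt1 higher), where 24.9% of all genes were, 14.7% higher and 10.3% lower. The averages over strains were added after the data had been examined, and comparisons with PE share the PE libraries and are not independent of each other. With libraries scaled to equal totals, the median of all genes in the comparison with uninjured muscle moved by 0.398 and the share of calls that were higher from 53.3% to 86.7%. The directions of the called members did not change, but Hspb1 (-0.30, adjusted p = 0.316) and Hspb7 (-0.91, adjusted p = 0.0856) lost their calls against uninjured muscle and Hspb1 (-0.58, adjusted p = 0.0827) against ECM, while Dnajb1 was called against uninjured muscle (0.80, adjusted p = 0.0134). Of the comparisons planned within a strain, PE against uninjured MRL muscle was the one with called members, Mt1 and Mt2, which are 2 of 9 where 9.73% of all genes were called, 5.95% higher and 3.78% lower. In that comparison 4 of 9 had an unadjusted p under 0.05, as did 36.1% of all genes.

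The calls depended on the 2 libraries that stood apart. Without replicate 2 of both PE groups, 0 of 9 members were called in each of the 3 averaged comparisons and in PE against uninjured MRL muscle. All genes called in the averaged comparison with uninjured muscle then made up 19.0%, with saline 5.48% and with ECM 3.92%. In PE against uninjured MRL muscle 0 of 14159 genes were then called, so the loss of calls there was not particular to the members. The directions of the called members did not change when these libraries were left out, and the sizes are given with each gene below. The plot of fold changes shows the small heat shock genes on the left of zero and the metallothioneins on the right in both strains.

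**Figure D1:**
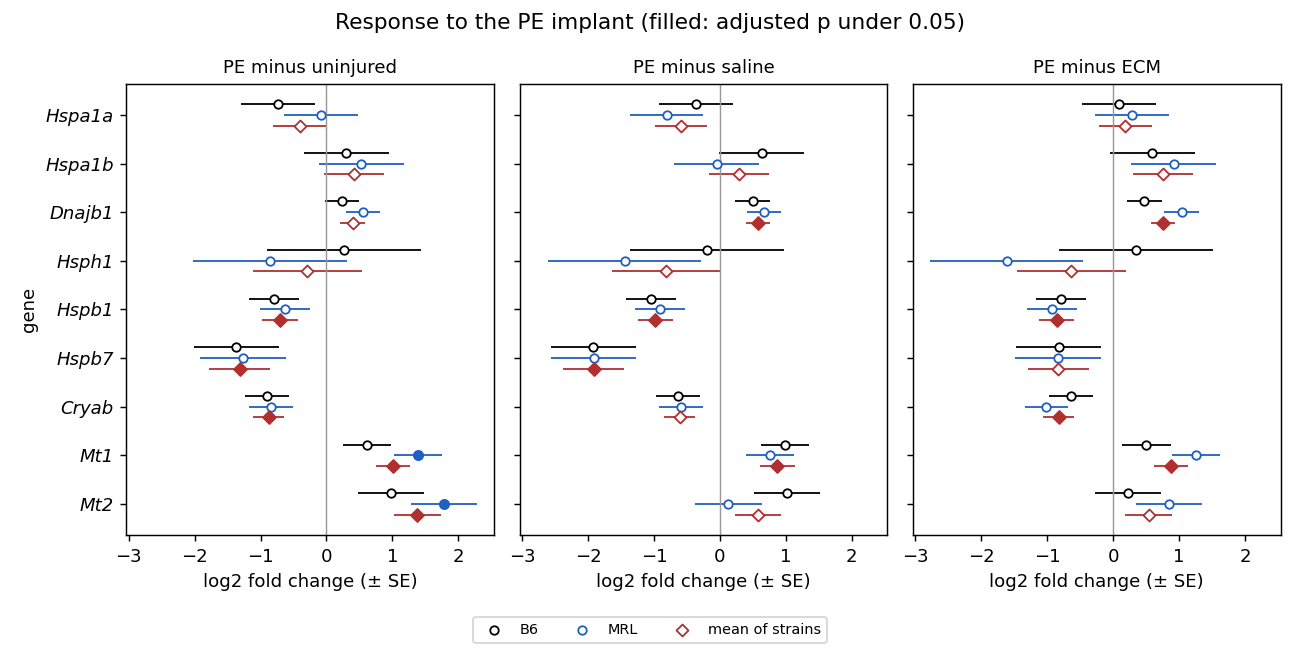
Log2 fold change (x axis, with standard error) of the 9 members (y axis) in PE-treated muscle against uninjured, saline-treated and ECM-treated muscle, for B6 (black), MRL (blue) and the mean of strains (red diamonds), with filled symbols at an adjusted p under 0.05. Hspb7, Hspb1 and Cryab lie below 0 and Mt1 above 0 in each panel and strain.

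Hspb7, a small heat shock gene of heart and skeletal muscle, had the widest fall against saline-treated and uninjured muscle. Its levels in B6 were 481, 81.4 and 312 CPM in uninjured muscle, 333, 274 and 419 CPM with saline, 124, 261 and 122 CPM with ECM and 97.2, 44.4 and 164 CPM with PE. In MRL they were 471, 106 and 197 CPM in uninjured muscle, 198, 634 and 303 CPM with saline, 132, 327 and 93.3 CPM with ECM and 97.5, 83.9 and 86.5 CPM with PE. In both strains every PE library lay below every saline library. The uninjured libraries spanned 81.4 to 481 CPM in B6, where they overlapped those of PE. In MRL they spanned 106 to 471 CPM and lay above all PE libraries. The log2 difference between PE and saline was -1.92 ± 0.65 (SE) in B6 (adjusted p = 0.0798) and -1.92 ± 0.65 in MRL (adjusted p = 0.122). Over both strains it was -1.92 ± 0.46 (adjusted p = 0.0103), and it was -1.64 (adjusted p = 0.065) without replicate 2 of both PE groups. An exact permutation of treatment labels within strains gave p = 0.005, the smallest it can give with 400 arrangements. Against uninjured muscle the difference was -1.32 ± 0.46 over both strains (adjusted p = 0.0269) and -1.05 without the 2 libraries (adjusted p = 0.144). By strain it was -1.37 ± 0.65 in B6 (adjusted p = 0.12) and -1.27 ± 0.65 in MRL (adjusted p = 0.164). Without PE replicate 2 the Hspb7 differences from saline were -1.42 in B6 and -1.87 in MRL, and those from uninjured muscle -0.87 in B6 and -1.22 in MRL. Against ECM, Hspb7 differed by -0.83 ± 0.46 over both strains (adjusted p = 0.184, exact permutation p = 0.06) and was not called.

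With ECM, all 3 B6 libraries had less Hspb7 than all 3 saline libraries, with a log2 difference of -1.09 ± 0.65 (adjusted p = 1). Of all genes, 8.28% did not overlap in that comparison, and Hspb7 was 1 of 9 members. In MRL the ECM and saline values overlapped.

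Hspb1 encodes Hsp25 (human HSP27), an actin-stabilising small heat shock protein. Its levels in B6 were 132, 116 and 148 CPM in uninjured muscle, 141, 119 and 232 CPM with saline, 117, 167 and 117 CPM with ECM and 87.5, 43.4 and 116 CPM with PE. In MRL they were 111, 88.1 and 110.2 CPM in uninjured muscle, 129, 139 and 107 CPM with saline, 103, 144 and 135 CPM with ECM and 97.2, 30.5 and 98.5 CPM with PE. The PE libraries were below the saline and the ECM libraries in both strains without overlap, by a margin that was small in B6, and replicate 2 was the lowest PE library in each. Over both strains the log2 difference was -0.98 ± 0.27 against saline (adjusted p = 0.0166), -0.86 ± 0.27 against ECM (adjusted p = 0.0284) and -0.71 ± 0.27 against uninjured muscle (adjusted p = 0.0396). Leaving out replicate 2 of both PE groups, these were -0.50, -0.38 and -0.23, with adjusted p-values of 0.102, 0.202 and 0.356. Within a strain the difference from saline was -1.05 ± 0.38 in B6 (adjusted p = 0.0984) and -0.91 ± 0.38 in MRL (adjusted p = 0.172), and without PE replicate 2 it was -0.64 for Hspb1 in B6 (adjusted p = 0.151) and -0.35 in MRL (adjusted p = 0.547).

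Cryab, which encodes the small heat shock protein alpha B-crystallin and binds desmin and titin in muscle, was 81.2, 55.3 and 74.7 CPM in uninjured, 56.2, 80.1 and 41.6 CPM in saline-treated, 63.2, 59.4 and 51.0 CPM in ECM-treated and 41.7, 24.95 and 48.6 CPM in PE-treated B6 muscle. In MRL it was 49.5, 52.7 and 70.1 CPM in uninjured muscle, 35.2, 52.3 and 59.1 CPM with saline, 58.6, 61.5 and 72.3 CPM with ECM and 30.1, 18.4 and 57.01 CPM with PE. All PE values were below all ECM values in both strains, and below all uninjured values in B6. Over both strains the log2 difference of PE from ECM was -0.83 ± 0.24 (adjusted p = 0.0199) and from uninjured muscle -0.87 ± 0.24 (adjusted p = 0.00744). Without replicate 2 of both PE groups they were -0.49 (adjusted p = 0.166) and -0.54 (adjusted p = 0.0714). By strain the Cryab difference from uninjured muscle was -0.91 ± 0.33 in B6 (adjusted p = 0.0524) and -0.84 ± 0.33 in MRL (adjusted p = 0.0846). That from ECM was -0.64 ± 0.33 in B6 (adjusted p = 0.281) and -1.01 ± 0.33 in MRL (adjusted p = 0.0806). Without PE replicate 2 the Cryab differences from uninjured muscle were -0.62 in B6 and -0.45 in MRL, and those from ECM -0.36 in B6 and -0.62 in MRL.

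Mt1 and Mt2 encode the metallothioneins found in most tissues. Mt1 in B6 was 9.64, 25.6 and 13.5 CPM in uninjured muscle, 10.9, 7.95 and 17.6 CPM with saline, 17.0, 14.0 and 17.7 CPM with ECM and 19.4, 33.4 and 18.6 CPM with PE. In MRL it was 10.9, 13.5 and 7.84 CPM in uninjured muscle, 19.4, 14.1 and 15.8 CPM with saline, 12.0, 11.9 and 10.7 CPM with ECM and 18.5, 47.6 and 24.04 CPM with PE. The highest library in each strain was PE replicate 2, and the MRL PE libraries were all above the uninjured and ECM libraries. Mt1 rose in PE-treated against uninjured MRL muscle by 1.39 ± 0.37 on the log2 scale (adjusted p = 0.0448), and the same difference in B6 was 0.62 ± 0.37 (adjusted p = 0.208). The Mt1 call in MRL was lost with the replicate block (adjusted p = 0.0504), quantile scaling (0.0629), a constant prior variance (0.0528) and only the groups compared (0.24). Over both strains Mt1 was higher with PE by 1.00 ± 0.26 than in uninjured muscle (adjusted p = 0.00601), by 0.87 ± 0.26 than with saline (adjusted p = 0.0228) and by 0.88 ± 0.26 than with ECM (adjusted p = 0.0219). Leaving out replicate 2 of both PE groups, these were 0.67, 0.54 and 0.55, with adjusted p-values of 0.0598, 0.202 and 0.187, and the MRL difference from uninjured muscle was 1.00 (adjusted p = 0.157) and the B6 one 0.35.

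Within a strain, the difference of PE from saline in Mt1 was 0.99 ± 0.37 in B6 (adjusted p = 0.104) and 0.76 ± 0.37 in MRL (adjusted p = 0.219), and the difference from ECM was 0.51 ± 0.37 in B6 (adjusted p = 0.439) and 1.26 ± 0.37 in MRL (adjusted p = 0.0661). Without PE replicate 2 the Mt1 differences from saline were 0.72 in B6 and 0.37 in MRL, and those from ECM 0.24 in B6 and 0.87 in MRL. The test of the strain difference in the response to PE over saline gave no called gene among the 9, and 0 had an unadjusted p under 0.05.

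Mt2 in B6 was 3.22, 6.54 and 7.53 CPM in uninjured muscle, 6.37, 2.39 and 9.38 CPM with saline, 11.2, 7.89 and 8.69 CPM with ECM and 8.96, 16.4 and 8.44 CPM with PE. In MRL it was 3.10, 4.25 and 1.92 CPM in uninjured muscle, 19.1, 5.18 and 8.38 CPM with saline, 7.61, 4.83 and 4.97 CPM with ECM and 6.55, 13.3 and 12.6 CPM with PE. The uninjured MRL libraries were below every treated MRL library, whatever the treatment. Of all genes, 13% did not overlap between saline-treated and uninjured MRL muscle, 13.1% between ECM-treated and uninjured and 38.8% between PE-treated and uninjured. These comparisons share the uninjured libraries. Mt2 rose in PE-treated against uninjured MRL muscle by 1.78 ± 0.50 on the log2 scale (adjusted p = 0.0463, and 0.158 at a difference of 1.60 without replicate 2 of both PE groups). The Mt2 call was lost with the replicate block (adjusted p = 0.0527), quantile scaling (0.0698), a constant prior variance (0.0532), the second index (0.0798) and only the groups compared (0.24). In B6 the difference was 0.98 ± 0.50 (adjusted p = 0.148), and 0.67 without PE replicate 2. Over both strains it was 1.38 ± 0.36 (adjusted p = 0.00594), and 1.14 without the 2 libraries (adjusted p = 0.0515).

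After saline injury alone, Mt2 was higher by 1.65 ± 0.50 in MRL than in uninjured MRL muscle, at an unadjusted p of 0.00384 and an adjusted p of 1, in a comparison where 0 of 14159 genes were called and 439 had an unadjusted p under 0.05. In B6 the same difference was -0.05 ± 0.50 (adjusted p = 0.98). The difference between the strains in this response was 1.70 ± 0.71 (unadjusted p = 0.0272, adjusted p = 1), so it did not pass the test.

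Dnajb1 encodes a J-domain partner of Hsp70. It was 11.3, 20.2 and 18.9 CPM in uninjured, 15.1, 10.1 and 16.2 CPM in saline-treated, 12.7, 12.3 and 16.7 CPM in ECM-treated and 17.7, 22.8 and 17.5 CPM in PE-treated B6 muscle. In MRL it was 20.7, 17.9 and 12.4 CPM in uninjured muscle, 15.6, 17.7 and 13.2 CPM with saline, 12.0, 12.0 and 11.7 CPM with ECM and 19.5, 35.3 and 21.4 CPM with PE. In both strains all PE libraries were above all saline and all ECM libraries, and the uninjured values overlapped those of PE. Over both strains Dnajb1 was higher with PE by 0.58 ± 0.18 than with saline (adjusted p = 0.0296) and by 0.76 ± 0.18 than with ECM (adjusted p = 0.0122). Leaving out replicate 2 of both PE groups, these were 0.39 (adjusted p = 0.229) and 0.56 (adjusted p = 0.0852). By strain the difference from ECM was 0.47 ± 0.26 in B6 (adjusted p = 0.307) and 1.04 ± 0.26 in MRL (adjusted p = 0.0559), and that from saline was 0.50 ± 0.26 (adjusted p = 0.238) and 0.67 ± 0.26 (adjusted p = 0.153). Without PE replicate 2 the Dnajb1 differences from ECM were 0.35 in B6 and 0.78 in MRL, and those from saline 0.37 in B6 and 0.41 in MRL.

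Counted over all members, 4 of 9 did not overlap between PE and saline in B6 and 3 of 9 in MRL, where 29.7% and 20.2% of all genes did not. Between PE and ECM it was 4 of 9 in each strain, the same genes (Hspb1, Cryab, Dnajb1 and Mt1), where 34.1% and 29.8% of all genes did not overlap. Without PE replicate 2, with 2 libraries against 3, it was 4 of 9 in B6 and 5 of 9 in MRL against saline, where 32.3% and 34.2% of all genes did not overlap, and 4 of 9 in each strain against ECM, where 38.1% and 43.0% did not. By limma, 0 of 9 were called in either strain in these comparisons. At an unadjusted p under 0.05 there were 3 of 9 in B6 and 3 of 9 in MRL for PE against saline, and 0 of 9 and 4 of 9 for PE against ECM. Of all genes, 25.2% and 23.3% were under it for PE against saline in B6 and MRL, and 20.6% and 28.4% for PE against ECM. Among all genes, 5.97% were called in B6 for PE against saline and 0.226% for PE against ECM, and in MRL 0 genes were called in both, with 3298 and 4022 genes at an unadjusted p under 0.05. For PE against uninjured B6 muscle 0 of 9 members were called, with 2 at an unadjusted p under 0.05, where 24.8% of all genes were called and 40.9% had such a p. Between PE and uninjured muscle 3 of 9 did not overlap in B6 (Cryab, Mt2 and, by a very small margin, Hspb1). In MRL it was also 3 of 9 (Hspb7, Mt1 and Mt2). Of all genes, 51.1% in B6 and 38.8% in MRL did not overlap there. Without PE replicate 2 it was 3 of 9 in each strain, beside 56.7% and 50.7% of all genes.

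The inducible Hsp70 genes did not follow the groups. Hspa1a and Hspa1b summed to 36.8, 23.5 and 43.8 CPM in uninjured, 22.6, 19.7 and 41.1 CPM in saline-treated, 26.6, 24.7 and 17.0 CPM in ECM-treated and 22.4, 31.2 and 34.6 CPM in PE-treated B6 muscle. In MRL the sums were 60.3, 17.7 and 26.3 CPM in uninjured muscle, 26.6, 88.3 and 48.0 CPM with saline, 18.2, 35.1 and 20.2 CPM with ECM and 17.8, 119 and 20.7 CPM with PE. The 2 highest libraries, replicate 2 of the PE and of the saline group of MRL, belonged to different treatments, and all groups of a strain overlapped. Without PE replicate 2 the other PE libraries of MRL, at 17.8 and 20.7 CPM, lay below the 3 saline libraries. The summed level differed between the strains by 0.27 ± 0.29 over all treatments (adjusted p = 0.547), and by 0.00 ± 0.42 between PE and uninjured muscle over both strains (adjusted p = 0.999).

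Hspa1a was 24.2, 12.7 and 24.5 CPM in uninjured, 13.1, 12.9 and 20.8 CPM in saline-treated, 12.9, 13.6 and 7.73 CPM in ECM-treated and 9.52, 10.7 and 16.1 CPM in PE-treated B6 muscle, and 35.8, 9.94 and 16.0, then 15.2, 55.2 and 30.5, then 11.5, 18.3 and 12.6, then 8.21, 47.2 and 12.2 CPM in the same groups of MRL. Hspa1b was 12.6, 10.8 and 19.3, then 9.52, 6.76 and 20.3, then 13.8, 11.1 and 9.24, then 12.9, 20.5 and 18.5 CPM in B6, and 24.5, 7.78 and 10.4, then 11.3, 33.1 and 17.5, then 6.72, 16.8 and 7.65, then 9.62, 71.7 and 8.52 CPM in MRL. Both genes were high together in MRL saline replicate 2 and MRL PE replicate 2. Neither was called in any comparison. In MRL PE replicate 2 Hspa1b stood above Hspa1a, and in MRL saline replicate 2 the order was the other way round.

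Hsph1, the Hsp110 exchange factor, was the member with the largest difference between the strains. In B6 it was 4.79, 12.6 and 5.66 CPM in uninjured muscle, 9.42, 3.68 and 25.8 CPM with saline, 5.36, 8.72 and 6.26 CPM with ECM and 4.97, 7.61 and 15.9 CPM with PE. In MRL it was 2.30, 2.38 and 2.52 CPM in uninjured muscle, 5.09, 1.78 and 5.35 CPM with saline, 1.22, 11.5 and 4.88 CPM with ECM, and it was listed at 0, 5.89 and 5.37 CPM with PE. The uninjured libraries of the strains did not overlap, and those of the other treatments did. A floor of 3 counts at the mean library size is 0.119 CPM, and the other PE libraries of that group lie far above it.

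Averaged over the 4 treatments, the log2 difference of MRL from B6 in Hsph1 was -1.55 ± 0.58 (unadjusted p = 0.0154, adjusted p = 0.078). It was chosen for this account after its values were seen. An exact permutation of strain labels within treatments, run for each of the 9 members, gave p = 0.00446 for Hsph1, unadjusted, and between 0.177 and 0.937 for the other 8. The adjusted p passed 0.05 in several alternatives and missed it in others. It was 0.0463 on the log2(CPM + 1) scale at a difference of -1.09, 0.0277 without replicate 2 of both PE groups at -1.84, and 0.0727 without the library at 0 at -1.04. By treatment the difference was -1.52 ± 1.17 in uninjured muscle (adjusted p = 0.738), -1.38 ± 1.17 with saline (adjusted p = 0.667), -0.67 ± 1.17 with ECM (adjusted p = 0.83) and -2.64 ± 1.17 with PE (adjusted p = 0.226). Without the library at 0 the Hsph1 difference with PE was -0.58 (adjusted p = 0.893), and without replicate 2 of both PE groups, which keeps that library, it was -3.77 (adjusted p = 0.0693). The values with PE and over all treatments include the library at 0 and so depend on the prior count.

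For the other 8 members the differences of MRL from B6 over the 4 treatments ranged from -0.24 ± 0.19 for Hspb1 to 0.41 ± 0.28 for Hspa1a. By limma 0 of 9 members were called in this comparison, with 1 at an unadjusted p under 0.05, where 15.2% of all genes were called and 31.6% had such a p. Within single treatments 0 of 9 were called, where 2.60% (uninjured), 2.51% (saline), 2.66% (ECM) and 3.35% (PE) of all genes were, and the members at an unadjusted p under 0.05 were Hsph1 with PE and none in the other treatments. Of all genes 10.9%, 13.3%, 13.4% and 19.1% had such a p in the same order. In uninjured muscle Hspb1 and Hsph1 did not overlap between the strains, 2 of 9 members beside 21.8% of all genes, and with ECM Dnajb1, Mt1 and Mt2 did not, 3 of 9 beside 25.8%. Without replicate 2 of both PE groups, 16.0% of all genes were called between the strains with PE and 28.4% over all treatments.

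**Figure D2:**
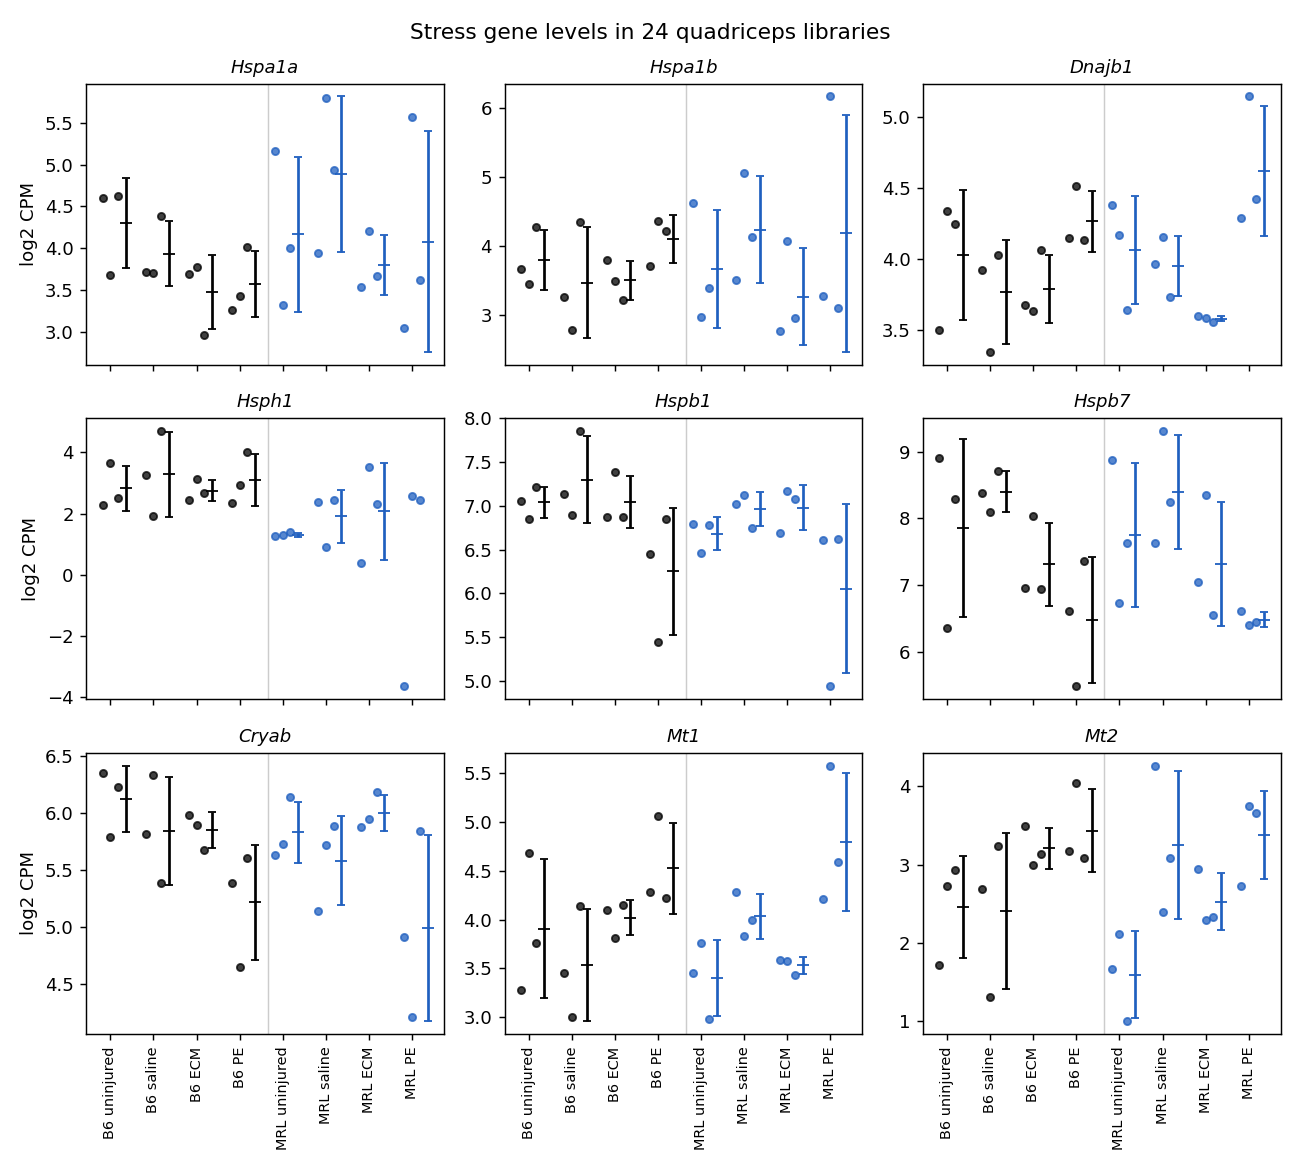
Deposited log2 CPM (y axis) of the 9 members in each of the 24 libraries (points), by group (x axis), with the mean and SD of 3 libraries drawn beside them for B6 (black) and MRL (blue). Hspb7 is low in the PE groups of both strains, Hspa1a and Hspa1b have single high libraries, and Hsph1 in MRL PE, which has a library listed at 0, is drawn without mean and SD.

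Saline injury and ECM treatment moved no member past the threshold of the adjusted p. By limma 0 of 9 were called for saline against uninjured muscle in either strain, with 0 of 9 in B6 and 1 of 9 in MRL (Mt2) at an unadjusted p under 0.05, where 0 of 14159 genes were called in both. For ECM against saline 0 of 9 were called in either strain and 0 of 9 had an unadjusted p under 0.05, where 0.0283% of all genes were called in B6 and 0.00706% in MRL. For ECM against uninjured muscle it was also 0 of 9 by both thresholds, where 0.424% were called in B6 and 0.0141% in MRL. An unadjusted p under 0.05 was found for 12.4% of all genes in B6 and 3.10% in MRL with saline against uninjured muscle, for 3.99% and 3.55% with ECM against saline, and for 16.8% and 3.80% with ECM against uninjured muscle. Averaged over the strains, 0 of 9 members were called by limma in each of these comparisons, where 0%, 0.0283% and 0.141% of all genes were called. In each, 1 of 9 had an unadjusted p under 0.05 (Mt2, Hspb7 and Mt2), where 11.2%, 5.49% and 17.4% of all genes did. An exact permutation of treatment labels within strains gave p = 0.005, unadjusted, for Mt2 with ECM against uninjured muscle, at a difference of 0.84. The other members had p of 0.065 to 0.735. With ECM against saline it gave 0.035 for Hspb7, 0.05 for Hspa1a and 0.25 to 0.95 for the others. Mt2 in B6, and Mt2 and Dnajb1 in MRL, did not overlap between ECM and uninjured muscle, beside 32.3% and 13.1% of all genes. The tests of a strain difference in the responses to saline, to ECM over saline and to PE over saline called 0 of 14159 genes, and Mt2 was the only member with an unadjusted p under 0.05, in the first and the second of them. Of all genes 4.03%, 2.26% and 4.34% had one in these tests.

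The members differed in how much libraries of a group varied. The pooled SD within groups, on the log2 scale, was 1.55 for Hsph1, 0.861 for Hspb7, 0.854 for Hspa1b and 0.740 for Hspa1a. It was 0.654 for Mt2, 0.497 for Hspb1, 0.474 for Mt1, 0.433 for Cryab and 0.325 for Dnajb1, beside a median of 0.401 over all genes. For Hsph1, 98.0% of all genes had a smaller SD, and for Dnajb1 38.4% did.

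Across the 24 libraries, which share 8 groups and the composition of the tissue, Hspa1a and Hspa1b correlated with a Spearman's rho of 0.68 and, as deviations from the group means, a Pearson's r of 0.90. Mt1 and Mt2 had a rho of 0.83 and an r of 0.75. Cryab and Mt1 ran against each other, with a rho of -0.75 and an r of -0.77. Dnajb1 went with Mt1 (rho = 0.71, r = 0.82) and against Cryab (rho = -0.70, r = -0.72). These are descriptions without a test, and values in CPM share the library total.

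The members also moved with markers of muscle fibres and of other cells. Cryab followed the summed fast fibre markers (rho = 0.82, within groups r = 0.85), and Mt1 ran against them (rho = -0.81, r = -0.79). Dnajb1 also ran against them (rho = -0.64, r = -0.76). Hspa1a and Hspb7 followed the slow fibre markers, each with a rho of 0.64 and with r of 0.75 and 0.76 within groups. Hspa1a also ran against the adipocyte markers within groups (rho = -0.31, r = -0.83). Mt2 went with the macrophage (rho = 0.72, r = 0.46), neutrophil (0.71, 0.45), fibroblast (0.71, 0.58) and T cell markers (0.62, 0.59). It ran against the fast fibre markers (rho = -0.72, r = -0.47). In PE-treated muscle, over both strains, 6 of 10 fast fibre markers were called lower and 0 higher than in uninjured muscle, while 8 of 8 macrophage, 6 of 6 fibroblast and 5 of 5 measured neutrophil markers were called higher. Of the 7 slow fibre and the 7 adipocyte markers 0 were called, and the summed adipocyte markers differed by -2.67 in B6 and 1.42 in MRL on the log2 scale. Without replicate 2 of both PE groups 0 of 10 fast fibre markers were called, and 8 of 8 macrophage, 4 of 6 fibroblast and 4 of 5 neutrophil markers were called higher. The part of these cell types in the changes of the members was not tested.

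**Figure D3:**
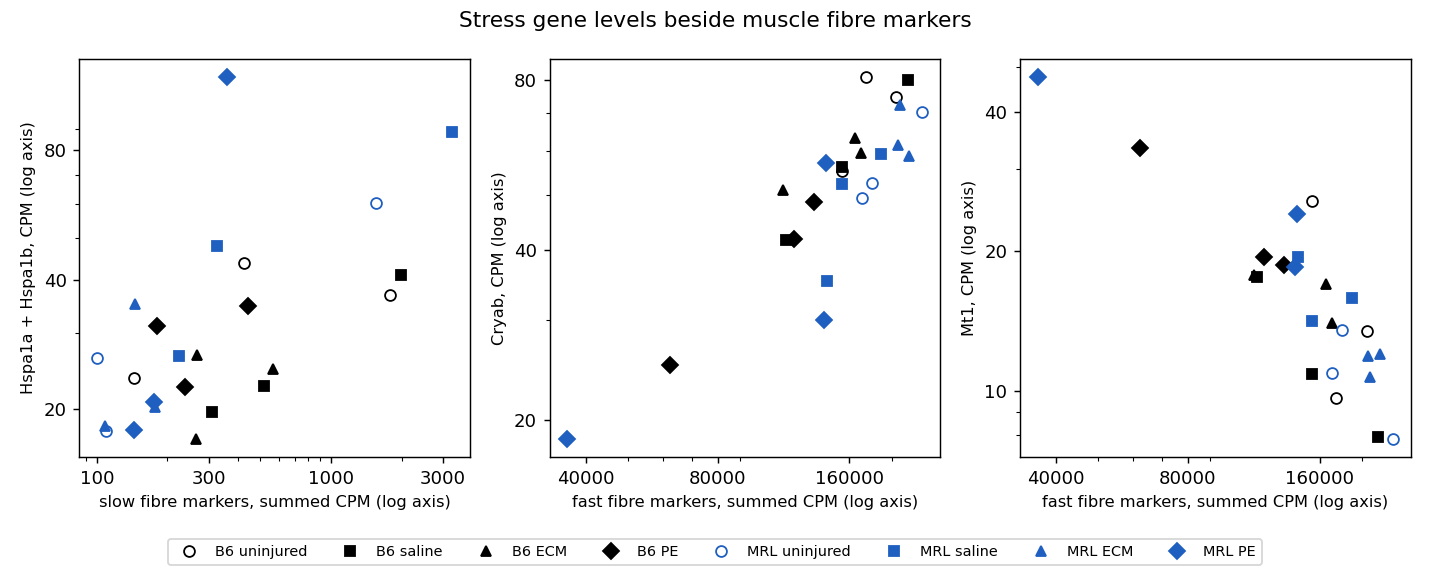
Summed level of Hspa1a and Hspa1b against the summed slow fibre markers, and levels of Cryab and Mt1 against the summed fast fibre markers, in CPM on log axes, 1 point per library (B6 black, MRL blue, with a shape for each treatment). Cryab is lowest and Mt1 highest in the 2 libraries with the lowest fast fibre markers, replicate 2 of the PE groups, and the library with the highest slow fibre markers (3290 CPM) has a summed Hsp70 level of 88.3 CPM.

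Genes like a member were searched for Hspa1a, Cryab and Mt1 only, 1 member of each kind, so the kinds cannot be compared. The genes most like them in their order over the 24 libraries came from the 11608 genes whose log2 CPM averaged 1 or more. For Hspa1a they were Myl3 (rho = 0.84), Myl2 (0.83), Adamtsl5 (0.79), Pdlim1 (0.75) and Myh7 (0.73), of which Myl3, Myl2 and Myh7 encode myosin chains of slow fibres. For Cryab they were Eri3 (0.92), Rph3al (0.91), Cops8 (0.90), Asb16 (0.89) and Akt1s1 (0.89). For Mt1 they were Ppp1r15b (0.93), Ppap2c (0.92), Rhob (0.92), Arf4 (0.91) and Pafah1b2 (0.89).

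Other genes of the same pathways were counted in PE-treated against uninjured muscle over both strains, where 23.5% of all genes were called higher and 20.6% lower. Of 47 measured genes of the chaperone network, 3 were called higher and 16 lower, with a median log2 fold change of -0.25 beside 0.04 for all genes. Those that fell most were Hspa1l, an Hsp70 relative (-1.47 ± 0.30, adjusted p = 0.00187), Hspb6, a small heat shock gene of muscle (-1.45 ± 0.34, adjusted p = 0.00362), the J-domain gene Dnaja4 (-1.25 ± 0.33, adjusted p = 0.00701) and Dnajb5 (-1.12 ± 0.25, adjusted p = 0.00326). Of 9 mitochondrial chaperones 8 were lower and 0 higher, led by Hspa9 (-0.87 ± 0.22, adjusted p = 0.00492) and Dnaja3 (-0.83 ± 0.19, adjusted p = 0.00368). The list of endoplasmic reticulum chaperones and unfolded protein response genes, which holds transcription factors such as Xbp1 and Atf4, went the other way. Of its 19 genes 12 were higher and 2 lower, with Sdf2l1 (2.00 ± 0.40, adjusted p = 0.00181) and the disulfide isomerase Pdia3 (1.44 ± 0.28, adjusted p = 0.00148) among the higher.

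Of 25 genes of metal handling 12 were higher and 3 lower. Mt3, a further metallothionein, was higher by 1.98 ± 0.54 (adjusted p = 0.0079), and the zinc importers Slc39a6 and Slc39a11 by 1.53 ± 0.31 (adjusted p = 0.00189) and 1.35 ± 0.32 (adjusted p = 0.00419), while the zinc transporter Slc30a2 was lower by a log2 difference of -0.94 ± 0.35 (adjusted p = 0.0343). Of 20 glucocorticoid-responsive genes 1 was higher and 7 lower, with Pdk4 (-1.80 ± 0.49, adjusted p = 0.00777), Zbtb16 (-1.48 ± 0.36, adjusted p = 0.00427) and the muscle ubiquitin ligase Fbxo32 (-1.02 ± 0.28, adjusted p = 0.00781) lower and the cell cycle inhibitor Cdkn1a (1.78 ± 0.57, adjusted p = 0.018) higher.

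Of 24 immediate early genes 8 were higher and 1 lower, with Egr2 (3.44 ± 0.66, adjusted p = 0.00139) and Atf3 (2.53 ± 0.71, adjusted p = 0.00909) changed most. The list of targets of the oxidative stress factor NRF2 also holds Nfe2l2, the gene of NRF2 itself, and its regulator Keap1. Of the 15 genes on this list 8 were higher and 4 lower. They include the cystine carrier gene Slc7a11 (2.87 ± 0.67, adjusted p = 0.00357) and the haem oxygenase gene Hmox1 (2.53 ± 0.42, adjusted p = 0.000968) among the higher and Nqo1 (adjusted p = 0.0023) among the lower. Several of these genes are also expressed by macrophages.

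Without replicate 2 of both PE groups, where 19.0% of all genes were called, the counts were 1 higher and 9 lower of 47 for the chaperone network, 0 and 4 of 9 for mitochondrial chaperones, 9 and 1 of 19 for the endoplasmic reticulum, 4 and 0 of 25 for metal handling, 0 and 3 of 20 for glucocorticoid-responsive genes, 8 and 1 of 24 for immediate early genes, and 7 and 1 of 15 for NRF2 targets. In MRL alone 0 genes of each list were then called, as were 0 of 14159 genes, with a median of -0.17 for immediate early genes and -0.08 for NRF2 targets. In B6 alone 18.1% of all genes were called, 1647 higher and 918 lower. There 7 immediate early genes and 7 genes of the list of NRF2 targets were called higher, with medians of 0.42 and 0.93. Also in B6, 9 of 19 endoplasmic reticulum genes were higher, and 6 of 9 mitochondrial chaperones lower. Of metal handling genes 5 were higher and 1 lower, while 3 chaperone network genes and 2 glucocorticoid-responsive genes were lower. The strain difference in the response to PE over uninjured muscle was not tested.

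**Figure D4:**
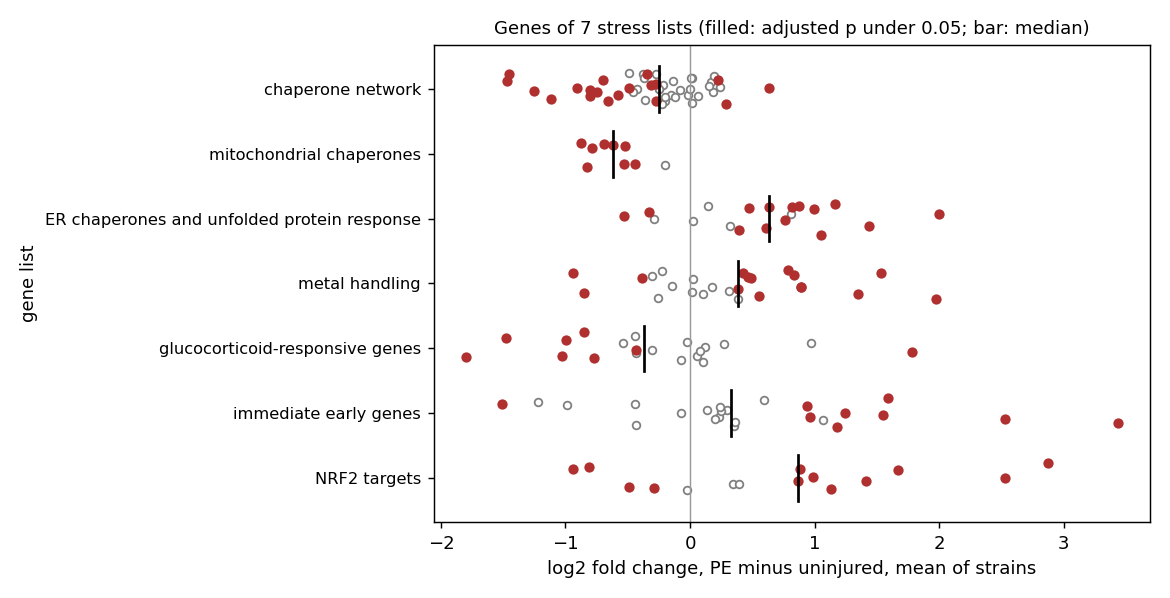
Log2 fold change of PE-treated against uninjured muscle, mean of strains (x axis), for the genes of 7 lists (y axis), 1 point per gene with filled points at an adjusted p under 0.05 and a bar at the list's median. Mitochondrial chaperones lie left of 0. Of the 19 genes of endoplasmic reticulum chaperones and the unfolded protein response, 12 are called to the right of it.

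A strain difference in the constitutive Hsp70 gene Hspa8 was called when the gene was read alone, and its near-identical copy differed in the other direction. Hspa8 was 501 to 696 CPM in the 12 MRL libraries and 984 to 1742 CPM in the 12 B6 libraries, a log2 difference of -1.02 over the treatments (adjusted p = 3.2e-07). The processed pseudogene Gm15459, whose transcript is 99.5% identical to Hspa8 over 1945 bases, was 436 to 644 CPM in MRL and 2.49 to 16.1 CPM in B6. The sum of both was 969 to 1340 CPM in MRL and 991 to 1752 CPM in B6, a log2 difference of -0.12, with an exact p of 0.175 for strain labels permuted within treatments. Hspe1, a mitochondrial co-chaperonin gene, was 8.90 to 14.8 CPM in MRL and 36.7 to 71.8 CPM in B6 (log2 difference -2.03, adjusted p = 1.1e-12), and 0 of the copies found for it have a row in the matrix, so the same sum could not be formed.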

How the data were processed

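Bulk RNA-seq of quadriceps muscle was analysed from 24 libraries in 8 groups of 3, grouped by the strain and treatment in the labels. Per the study's methods, the authors pseudoaligned reads with kallisto to mouse cDNA from Ensembl (GRCm39), and tximport gave gene-level abundances as lengthScaledTPM. Genes over 1 CPM in 3 or more libraries were kept and TMM scaling was applied. The deposited unit is log2 CPM, with a prior count of 2 added before the logarithm. 1 row without a symbol was left out. Counts are not in the matrix, so voom, which the study used, was replaced by a variance trend. The lowest value, -3.65, stands for a count of 0. With the prior count it gives a mean effective library size of 25149700 reads. Read totals of single libraries are not in the matrix and were not used here. CPM was recovered by removing the prior of 0.0795 CPM. Depth limits low genes, and 3 libraries per group limit every comparison.

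Groups were compared with limma 3.58.1 in R 4.3.3 (lmFit, contrasts, eBayes with trend), with 1 coefficient per group over 24 libraries, 2-sided tests and Benjamini-Hochberg adjustment over 14159 genes. Exact permutation tests used SciPy 1.17.1 and NumPy 2.4.6. With 3 against 3 libraries an exact test cannot go below 0.10, so labels were permuted within strata. Transcripts were compared with BLAST 2.17.0 at 90% identity over at least 50% of the shorter one. The procedure was tested on simulated data. Alternatives were another pseudocount, a filter on low genes, 2 other scalings, library weights, a constant prior variance, only the groups compared, a replicate block, sequencing indices as terms, summed Hsp70 genes, and each library left out.

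The members, gene lists and markers were chosen with earlier results of these data known, and comparisons averaged over strains and the omission of replicate 2 of both PE groups were chosen after seeing the data. Fold changes are given for members that were called, that did not overlap with an absolute log2 fold change of at least 1, or that are set beside these, and for up to 4 called genes of a list. The replicate numbers were checked as pairs: in 1 of 16 comparisons of 2 groups all 3 correlations of deviations exceeded 0.1, so they do not pair the samples.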

Additional observations from a re-analysis of the deposited data

How the results depend on the processing

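Counts of called members moved with library weights and with the libraries included. Without replicate 2 of both PE groups the counts averaged over strains went from 4 (PE against saline), 4 (PE against ECM) and 5 (PE against uninjured) to 0 in each, the count for PE against uninjured MRL muscle went from 2 to 0, and 1 member was called between the strains over all treatments. With single libraries left out, the counts ranged from 1 to 5, 1 to 4 and 3 to 6 in the averaged PE comparisons, 0 to 3 for PE against uninjured and against ECM in MRL, 0 to 2 for PE against saline and 0 to 1 against uninjured in B6, and 0 to 1 between the strains with PE and over all treatments. The MRL calls against uninjured muscle were lost without MRL uninjured replicate 1 or 3 or MRL PE replicate 2. They also went to 0 with quantile scaling, a constant prior variance or only the groups compared (0 genes called in all) or the replicate block (9 genes called in all), and to 1 with the second index as a term. With only the groups compared the averaged PE counts were 1 against saline, 1 against ECM and 3 against uninjured, and B6 PE against uninjured had 1 (0.939%, 4.31%, 38.2% and 29.9% of all genes). With library weights, whose fit did not reach its tolerance, 8 members were called for PE against saline, 3 against ECM and 6 against uninjured in B6 (68.1%, 39.4% and 63.6% of all genes), 3 against saline and 2 against ECM in MRL (23.3% and 16.3%), 3 between strains with saline, 1 with PE and 1 over all treatments (41.8%, 56.5% and 56.9%), 1 and 2 for the strain differences in the responses to saline and to PE, and 1 for saline against uninjured averaged over strains. With the first index as a term, which is partly confounded with the groups, 1 was called between strains in uninjured, saline-treated and PE-treated muscle and over all treatments, 0 for PE against ECM and 2 for ECM against uninjured, both averaged. With the second index 1 was called for PE against saline and 1 against uninjured in B6, 3 against saline and 2 against ECM in MRL, and 7 for PE against saline averaged (6.05%, 29.0%, 5.42%, 2.41% and 38.8% of all genes). On the log2(CPM + 1) scale 1 was called between strains over all treatments, and for PE against ECM in MRL 1 with a filter on low genes and 2 with equal totals, where 717 genes were called in all. Counts given here without a share of all genes cannot be read as particular to the members. The causes were not tested. The difference in Mt2 between saline-treated and uninjured B6 muscle turned to 0.10 with equal totals, 0.20 with library weights, 0.78 with the first index, 0.36 with the second and -0.46 to 0.51 without single libraries, and that in Hsph1 between strains with ECM to 0.75 with the second index and ranged from -1.40 to 0.17 without single libraries, above 0 without MRL ECM replicate 1. Same-numbered samples are not known to share an animal, and the replicate block changed no other count of called members by more than 1.5 times. Read totals of single libraries are not in the matrix and were not used here, and 3 libraries per group limit every comparison.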
